A study of Mus musculus with 6 samples.

Results

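The enzymes described here make serine, pass its carbon to folate and make asparagine. They are 10 genes, found by symbol among the 22127 genes of the mRNA table, each matching 1 row, and they are Phgdh, Psat1 and Psph (serine synthesis), Shmt1 and Mthfd1 (cytosolic folate), Shmt2, Mthfd2, Mthfd1l and Aldh1l2 (mitochondrial folate) and Asns (asparagine synthesis). GC-2 spd(ts) is an immortalised mouse line derived from spermatocytes. One culture received 120 µM bisphenol A (BPA), a monomer of polycarbonate plastic, for 48 h in medium with 10% serum, and the other received 0.1% dimethyl sulfoxide in the same medium. Both had been kept without serum for 12 h beforehand, and both are the same line. How much DMSO the BPA medium held is not stated in the labels. RNA of each culture was divided among an mRNA, a miRNA and a circular RNA (circRNA) library, so every group is 1 library and no difference below has a replicate check.

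Serine is made from 3-phosphoglycerate, an intermediate of glycolysis, by the successive action of PHGDH, PSAT1 and PSPH. Serine hydroxymethyltransferases then split serine into glycine and a carbon unit carried by tetrahydrofolate. In mitochondria this unit is oxidised to formate, which is exported, and in the cytosol formate is charged onto folate again for purines, thymidylate and methyl groups. Phgdh, Psat1, Psph, Shmt2, Mthfd2 and Asns are known targets of ATF4, the transcription factor of the integrated stress response.

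The mRNA libraries held 33071378 reads with BPA and 32312872 in control, and 16870 genes with at least 10 reads in both libraries together were compared. All 10 enzymes passed that filter, each with more than 5000 reads in the 2 libraries together. Of germ cell markers, 3 of 10 were in the table: Hspa2 had 588 reads with BPA and 411 in control, Ddx4 9 and 0, and Sycp3 0 and 6. Ddx4 and Sycp3 thus do not bear out the label of a spermatocyte-derived line, while Hspa2 was read in both libraries. Fibroblast and peritubular markers had 5 of 6 in the table, with a summed level of 3086 CPM (reads scaled by the library total) with BPA and 5706 CPM in control. Sertoli markers likewise had 5 of 6, at 73.1 CPM with BPA and 73.9 CPM in control. Leydig markers had 2 of 5, at 2.75 and 2.14 CPM, and leukocyte markers 3 of 4, at 7.80 and 4.70 CPM. These lists do not settle the cell type. The summed fibroblast and peritubular level differed between the libraries, and its part in the ratios below was not tested. In bulk RNA, a changed number of cells of a type and a changed amount of RNA per cell cannot be told apart.

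In the BPA library the enzymes of serine synthesis and of mitochondrial folate were higher, those of cytosolic folate were not, and Asns was about double. Of the 10 genes, 9 had a log2 ratio of BPA over control above 0, where 51.9% of all compared genes did, and 3 were at least 2-fold higher, where 6.88% of all genes were. One of the 9, Shmt1, lay so near 0 that TMM (trimmed mean of M-values) scaling or removal of the trend on GC content put it below, which left 8. None was at least 2-fold lower, against 4.61% of all genes. The 95% counting interval lay above equality for 8 of the 10, against 28.2% of all compared genes, and below it for 1, Mthfd1, against 26.5%. The median log2 ratio of the 10 was 0.76, against 0.02 over all compared genes. Among the 3271 genes with at least 5000 reads, the abundance range of these enzymes, 1.07% were at least 2-fold higher, 0.795% were at least 2-fold lower, 27.6% had an interval above equality, 37.2% lay above 0 and the median was -0.07. Together the 10 genes took 131252 reads, 0.397% of the BPA library, and 76480 reads, 0.237% of the control library.

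**Figure D1:**
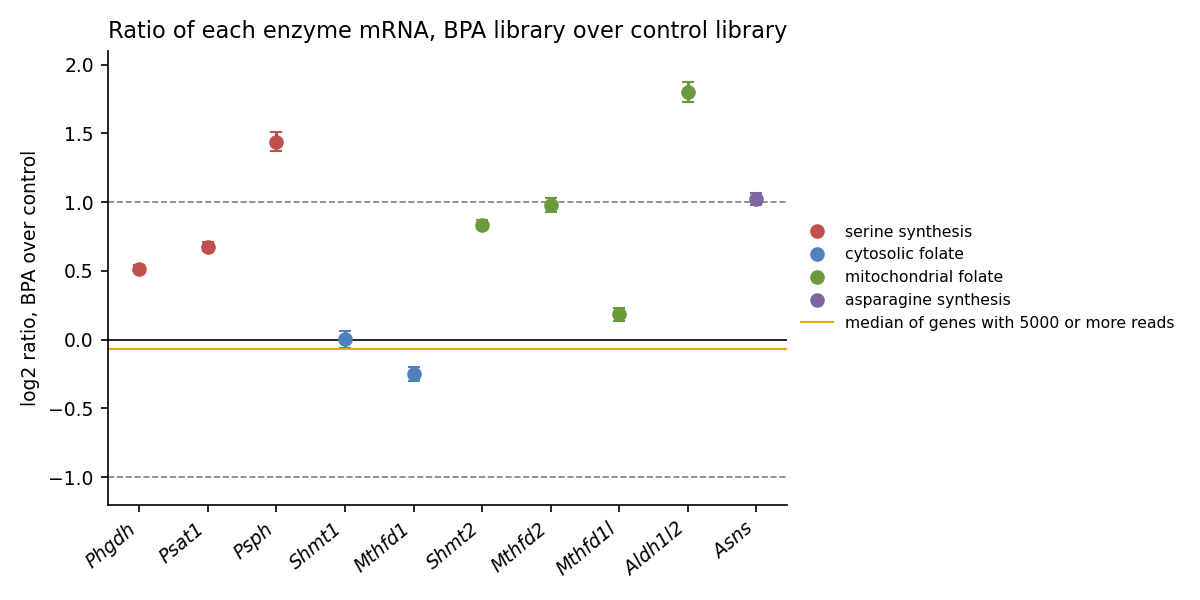
log2 ratio of each enzyme mRNA, BPA library over control library, coloured by class. Bars are 95% counting intervals from 1 library per group, dashed lines mark 2-fold, and the yellow line is the median of the genes with at least 5000 reads. The cytosolic enzymes Shmt1 and Mthfd1 lie at or below 0 and the other 8 lie above it.

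Phgdh, the entry enzyme that oxidises 3-phosphoglycerate (chromosome 3, 98313170 to 98339990, minus strand of GRCm38), had 30949 reads with BPA and 20059 in control. Its log2 ratio was 0.51, with a 95% counting interval of 0.49 to 0.54, a 1.43-fold higher normalised count. Psat1, the aminotransferase of the middle step (chromosome 19, 15904678 to 15947337), had 19742 reads with BPA and 11435 in control, a log2 ratio of 0.68 (0.64 to 0.71). Psph, the phosphatase that releases serine (chromosome 5, 129765558 to 129787449), had 6769 reads with BPA and 2313 in control, a log2 ratio of 1.44 (1.37 to 1.51) and a 2.71-fold higher normalised count. The ratio thus grew along the pathway, and the least abundant of the 3 enzymes had the largest one. The log2 ratio of Psph exceeded that of Phgdh by 0.92 (0.85 to 1.00) and that of Psat1 by 0.76 (0.69 to 0.84), while Psat1 exceeded Phgdh by 0.16 (0.12 to 0.20). These differences compare genes inside the same pair of libraries, so the scaling between libraries cancels. Of all 16870 genes 15.5% had a higher ratio than Phgdh, 11.4% a higher one than Psat1 and 3.66% a higher one than Psph. Exons of Psph share 452 bases with Cct6a on the opposite strand, which had 19490 reads with BPA and 20983 in control. The libraries were strand-specific per the labels, but the labels do not say whether the counting used strand, so some reads of Psph are uncertain.

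The cytosolic folate enzymes did not share in this. Shmt1, which converts serine to glycine in the cytosol (chromosome 11, 60788104 to 60811718), had 4492 reads with BPA and 4150 in control. Its log2 ratio of 0.00 had an interval of -0.06 to 0.06, so no difference was detectable at this depth. Mthfd1, the cytosolic enzyme that joins formate to folate and interconverts the products (chromosome 12, 76255298 to 76319803, plus strand), had 5898 reads with BPA and 6503 in control. Its log2 ratio was -0.25 (-0.30 to -0.20), and 76.4% of all compared genes had a higher one. Of the genes with at least 5000 reads, 52.2% had an interval below equality, so a ratio slightly below 0 was the common case at this abundance. Shmt1 shares 184 exon bases with Smcr8 on the opposite strand, which had 4312 reads with BPA and 3252 in control.

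All 4 mitochondrial folate enzymes lay above 0, over a wide range. Shmt2, the mitochondrial serine hydroxymethyltransferase (chromosome 10, 127517123 to 127522444), had 23292 reads with BPA and 12079 in control, a log2 ratio of 0.84 (0.80 to 0.87). Mthfd2, the dehydrogenase and cyclohydrolase that oxidises the carbon unit (chromosome 6, 83305691 to 83325908), had 10523 reads with BPA and 4941 in control. Its log2 ratio was 0.98 (0.93 to 1.03), an interval that spans the 2-fold line. Mthfd1l, the synthetase that releases formate (chromosome 10, 3973118 to 4167081, plus strand), had 7992 reads with BPA and 6507 in control and the smallest ratio of the class, 0.18 (0.14 to 0.23). Aldh1l2, which burns the carbon unit to carbon dioxide and yields NADPH (chromosome 10, 83487450 to 83534140), had 7046 reads with BPA and 1872 in control. Its log2 ratio of 1.80 (1.73 to 1.87), a 3.48-fold higher normalised count, was the largest of the 10 enzymes. Only 3 of the 3271 genes with at least 5000 reads had a higher ratio. Aldh1l2 and Mthfd1l stand at the branch where the formyl group is either oxidised away or released as formate, and the intervals of their ratios did not overlap. Aldh1l2 shares 1056 exon bases with D10Wsu102e on the opposite strand, which had 3961 reads with BPA and 3587 in control, so some of its reads are uncertain in the same way.

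Asns, the asparagine synthetase that takes its nitrogen from glutamine (chromosome 6, 7675169 to 7693254), had 14549 reads with BPA and 6621 in control. The log2 ratio was 1.02 (0.98 to 1.07), a 2.03-fold higher normalised count. It exceeded that of Mthfd2 by 0.05, with an interval of -0.02 to 0.11, so the 2 ratios could not be told apart from their reads. No annotated gene overlaps Asns or Phgdh.

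**Figure D2:**
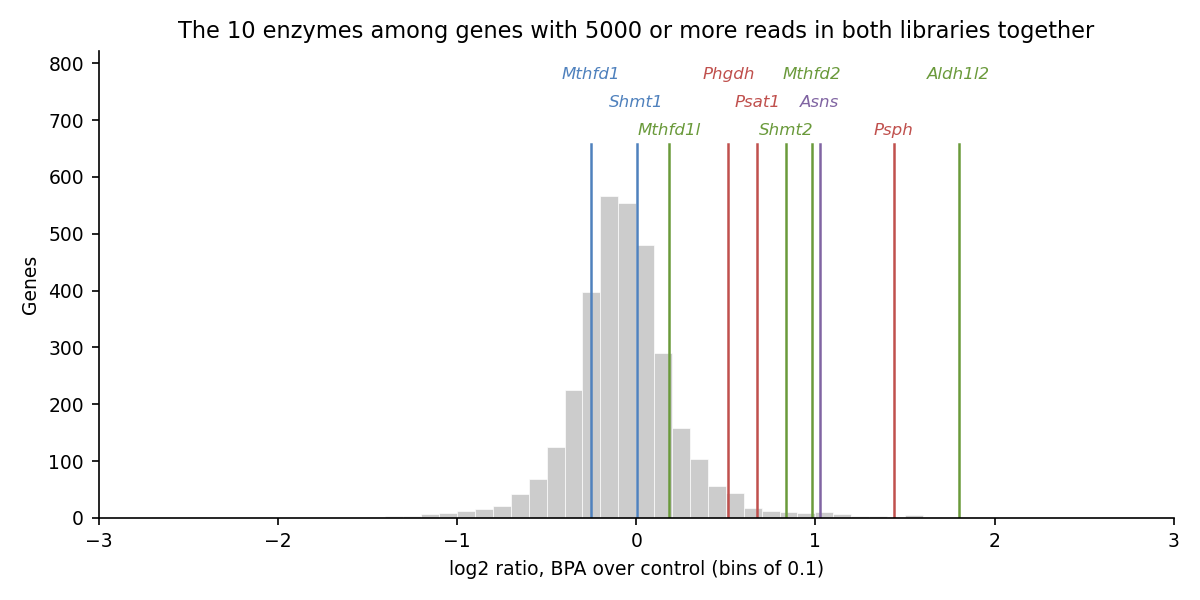
Histogram of log2 ratios, BPA over control, for the 3271 genes with at least 5000 reads in both libraries together (x axis in bins of 0.1, y axis number of genes), with a line for each of the 10 enzymes in its class colour. Shmt1, Mthfd1 and Mthfd1l lie within the bulk of the genes, and Psph and Aldh1l2 lie at its upper edge.

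Compared as classes, the mitochondrial and the cytosolic folate enzymes differed. With the reads of each class summed, mitochondrial folate had 48853 reads with BPA and 25399 in control, and cytosolic folate 10390 and 10653. The summed log2 ratios were 0.83 (0.81 to 0.85) for mitochondrial folate, 0.65 (0.63 to 0.67) for serine synthesis and -0.15 (-0.19 to -0.11) for cytosolic folate. A sum leans on its most abundant gene, here Shmt2 with 23292 reads with BPA and Phgdh with 30949. The medians over single genes were 0.91 for mitochondrial folate, 0.68 for serine synthesis and -0.12 for cytosolic folate. By summed reads the mitochondrial class exceeded the cytosolic one by 0.98 on the log2 scale (0.93 to 1.02), and serine synthesis exceeded the cytosolic one by 0.80 (0.76 to 0.85). Mitochondrial folate and serine synthesis lay closer, 0.18 apart (0.15 to 0.21), and their single genes overlapped in range. The gap between the folate compartments held for each mitochondrial enzyme set against a cytosolic one. The log2 ratio of Shmt2 exceeded that of its cytosolic counterpart Shmt1 by 0.83 (0.76 to 0.90). For Mthfd2 against Mthfd1 the difference was 1.23 (1.16 to 1.30), and for Mthfd1l against Mthfd1, which share the synthetase activity, it was 0.44 (0.37 to 0.51). Mthfd2 took 64.1% of the reads of Mthfd2 and Mthfd1 with BPA and 43.2% in control. For Shmt2 and Shmt1 the share of Shmt2 was 83.8% with BPA and 74.4% in control. Intervals treat reads as independent molecules, cover counting error only and say nothing of variation between cultures.

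Levels per length set the enzymes in order within each library. As RPKM (reads per kilobase of 1 principal transcript, scaled by the library total), Phgdh was the most abundant of the 10, at 494 RPKM with BPA and 328 in control, followed by Shmt2 at 308 and 163 and Psat1 at 228 and 135. Asns had 218 RPKM with BPA and 102 in control, and Mthfd2 153 and 73.3. The cytosolic Mthfd1 had 55.0 RPKM with BPA and 62.1 in control, and Shmt1 47.5 and 44.9. Psph was the ninth in control at 41.3 RPKM, just under Shmt1, and the sixth with BPA at 118 RPKM. Mthfd1l had 65.5 RPKM with BPA and 54.6 in control. Aldh1l2 was the least abundant in both libraries, with 35.4 RPKM with BPA and 9.61 in control. By the principal transcript, counting intervals of neighbours in the order did not overlap, but the order depended on the length used. With the joined length of all annotated exons, Asns stood above Psat1 with BPA, at 161 against 140 RPKM. Psph then stood under Mthfd1l with BPA, at 47.3 against 54.5 RPKM. In control, Mthfd2 stood under Mthfd1 and Mthfd1l by that length, at 43.9 against 45.3 and 45.4 RPKM. Intervals were not computed for that length, so the order of these close levels in control is not settled.

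**Figure D3:**
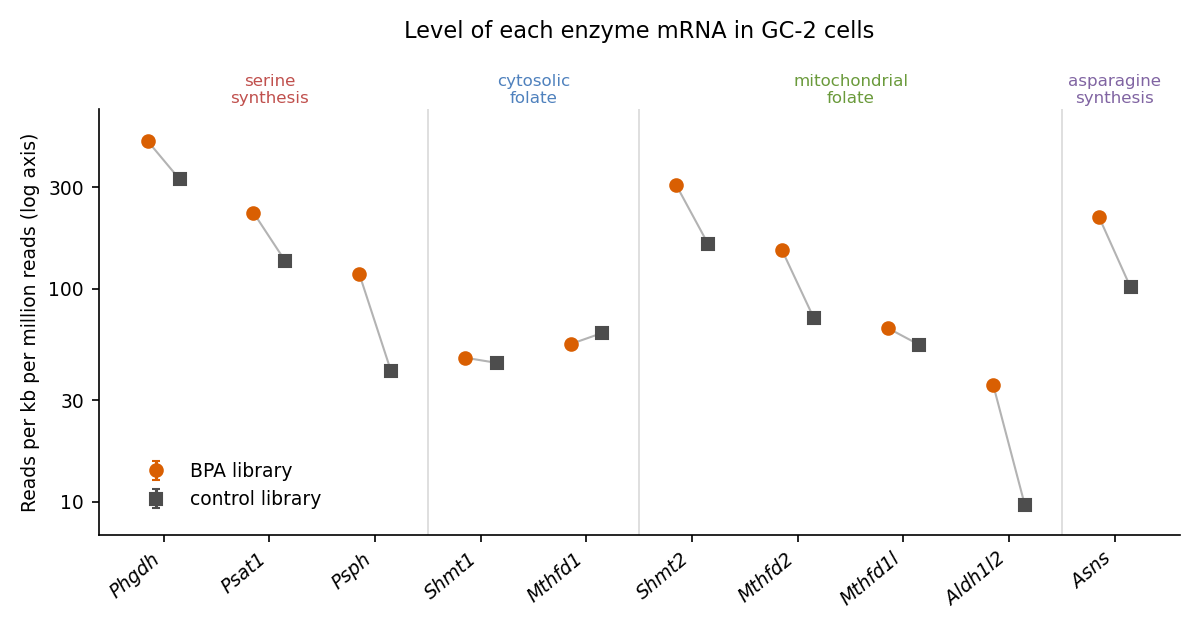
Level of each enzyme mRNA in RPKM (reads per kb of 1 principal transcript, scaled by the library total), on a log axis, with BPA (circle) left of control (square). Bars, mostly smaller than the symbols, are 95% counting intervals. Mthfd1 has the lower symbol with BPA, Shmt1 has nearly level symbols, and the other 8 enzymes, among them Mthfd1l at 65.5 with BPA and 54.6 in control, are higher with BPA.

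Promoter windows show how the genes differ around their RefSeq starts. RefSeq windows on GRCm38.p6, from 250 bases before to 50 after a start, were at hand for 9 of the 10 genes, with 2 windows for Psat1, and Aldh1l2 was not among them. The composite site of ATF4 with a C/EBP partner, searched as TGATGNAA on both strands, was in 1 gene, Asns, at positions -23 to -16, counted from the last base before the start as -1, and in 3.97% of all 32851 windows. The CRE palindrome TGACGTCA was in none of the 9 genes and in 1.79% of all windows, and the E-box CACGTG was likewise in none of the 9 and in 7.15% of all windows. The NF-Y motif CCAAT was in 6 of the 9 genes and in 37.4% of all windows. It was found 3 times in Mthfd2, 3 times in 1 window of Psat1, 2 times each in Phgdh and Psph, and 1 time each in the cytosolic Shmt1 and Mthfd1. It was thus held by genes with high and with low ratios. A match is a description of letters and not a bound site, and sites outside these windows, such as intronic ones, were not searched. The 150 bases before the RefSeq start are shown for Asns, which alone held the ATF4 motif, for Psph and Mthfd2, for Shmt2, whose window held no searched motif, and for the cytosolic pair. They run 5′ to 3′ along the gene, and capitals mark TGATGNAA in Asns and CCAAT, or ATTGG where it lies on the other strand, in the rest.
Asns: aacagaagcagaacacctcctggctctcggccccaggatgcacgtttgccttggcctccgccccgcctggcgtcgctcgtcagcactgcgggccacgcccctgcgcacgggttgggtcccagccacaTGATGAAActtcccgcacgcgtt
Psph: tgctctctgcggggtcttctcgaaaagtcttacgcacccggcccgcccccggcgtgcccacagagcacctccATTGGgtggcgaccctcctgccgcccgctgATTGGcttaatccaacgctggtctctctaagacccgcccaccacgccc
Mthfd2: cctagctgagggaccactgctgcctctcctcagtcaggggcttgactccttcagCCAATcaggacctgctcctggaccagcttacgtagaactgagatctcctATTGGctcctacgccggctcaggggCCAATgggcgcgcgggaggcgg
Shmt2: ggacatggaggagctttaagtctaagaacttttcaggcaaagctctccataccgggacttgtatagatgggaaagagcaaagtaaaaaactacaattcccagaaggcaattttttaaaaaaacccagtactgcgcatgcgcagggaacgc
Shmt1: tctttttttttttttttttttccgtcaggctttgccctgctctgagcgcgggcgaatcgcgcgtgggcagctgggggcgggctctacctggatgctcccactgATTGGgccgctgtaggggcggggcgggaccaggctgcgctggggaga
Mthfd1: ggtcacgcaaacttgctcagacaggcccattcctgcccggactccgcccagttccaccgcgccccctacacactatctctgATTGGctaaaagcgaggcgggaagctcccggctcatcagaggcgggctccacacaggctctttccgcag
The windows are chr6:7693210-7693359, chr5:129787254-129787403, chr6:83317605-83317754, chr10:127522445-127522594 and chr11:60811266-60811415 on the minus strand and chr12:76255082-76255231 on the plus strand. Of these RefSeq starts, that of Shmt2 is the outermost start of the GENCODE gene span given above, that of Mthfd1 lies before its span, and those of Asns, Psph, Mthfd2 and Shmt1 lie within theirs. The printed windows of Psph, Mthfd2 and Shmt1 and the ATF4 motif of Asns lie inside those spans.

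The pathways around these enzymes were described by 8 wider lists, whose medians ran from -0.24 for methionine and cysteine genes to 0.69 for regulators. With at least 50 reads per gene the methionine and cysteine median was -0.03, and glycolysis had the lowest median, -0.23. Among 11 compared folate enzymes outside the 10, 4 were above 0 and 7 below, none at 2-fold, with a median of -0.16. Fpgs, which retains folate in cells by adding glutamates, was the lowest of them at -0.43 (-0.53 to -0.32). The mitochondrial paralog Mthfd2l had 352 reads with BPA and 365 in control, a log2 ratio of -0.16 (-0.38 to 0.05), 1.14 below that of Mthfd2 (0.92 to 1.36). Aldh1l1, the cytosolic counterpart of Aldh1l2, had 0 reads with BPA, which allows up to 0.0907 CPM, and 4 in control, too few to compare. Purine synthesis, which uses the folate carbon, had 3 of 11 genes above 0 and a median of -0.19, with Impdh1 at 0.47 and Paics at -0.40. All of its genes but Ppat and Adssl1 had over 5000 reads in the 2 libraries together. Of all genes that abundant only 37.2% lay above 0, so a ratio slightly below 0 was common there. The glycolytic enzymes that lead to 3-phosphoglycerate, with Pgam1 below it, were below 0 in 12 of 12 genes (11 when scaled by total reads), none at 2-fold, with a median of -0.23. All of them but Pfkm and Aldoc had over 5000 reads, and of all genes that abundant 37.2% lay above 0 and 52.2% had an interval below equality, so a ratio below 0 was common there. Pfkl was the lowest of them at -0.56 and Hk2, the gene above 0 by total reads, the highest at -0.07. In the same libraries the enzymes that lead 3-phosphoglycerate to serine were all above 0.

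Of 13 compared carriers of folate and serine, 8 were above 0 and Slc1a4, a transporter of serine and other small neutral amino acids, was at 2-fold, with 3481 reads with BPA and 1594 in control and a log2 ratio of 1.01 (0.93 to 1.10). Scaled by total reads, 2 carriers were at 2-fold, since Slc1a5, a glutamine and neutral amino acid transporter named after its value was seen, joined, with 4239 reads with BPA and 2034 in control and a log2 ratio of 0.95 (0.87 to 1.02) before that scaling. Slc25a32, the mitochondrial folate carrier, was at -0.03 and Sfxn1, the mitochondrial serine carrier, at -0.09. Enzymes that use serine or glycine were split evenly, 6 of 12 above 0, with the serine racemase Srr at 0.84 from 623 reads with BPA and 322 in control, and the glycine cleavage protein Gcsh at -0.24. Gldc, the decarboxylase of that complex, had 3 reads with BPA and 10 in control. Of 11 genes of the methionine cycle and transsulfuration, 5 were above 0. Cth, which makes cysteine from cystathionine, had 2114 reads with BPA and 449 in control and a log2 ratio of 2.12 (1.98 to 2.27), while Cbs, which joins serine to homocysteine, had 9 and 22 reads. The asparagine, aspartate and glutamine enzymes had 6 of 11 above 0. Pycr1, the last enzyme of proline synthesis, was at 1.53 (1.43 to 1.64), and Got1, the cytosolic aspartate aminotransferase, at 1.25 (1.18 to 1.33).

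Of 17 compared regulators, 13 were above 0, where 51.9% of all compared genes were, and 6 were at least 2-fold higher, where 6.88% were. Their median was 0.69, against 0.02 over all compared genes. The 6 were Trib3, Atf3, Nupr1, Ddit3, Ppp1r15a and Cebpb, at log2 ratios of 2.69, 1.81, 1.56, 1.54, 1.39 and 1.18, all of them genes of the stress response. Atf4 itself had 28597 reads with BPA and 16430 in control, a log2 ratio of 0.69. Of the kinases that start the response, Eif2ak3 was at 0.18 and Eif2ak4, the sensor of amino acid shortage, at -0.45. Between them lay Eif2ak2 at -0.07 (-0.17 to 0.03) and Eif2ak1 at -0.11 (-0.18 to -0.04). Myc, another regulator of serine and folate genes, was at 0.07. Several of these genes belong to a stress list of earlier work on the same libraries, so their direction is no independent evidence.

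**Figure D4:**
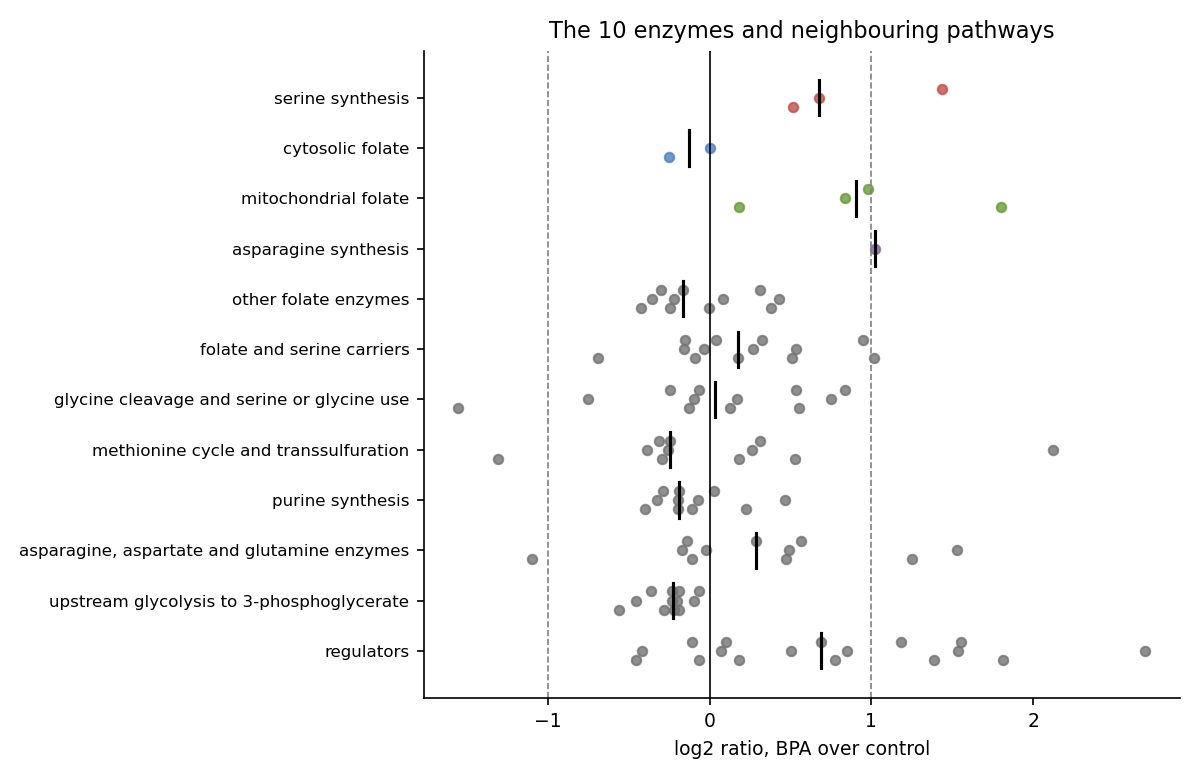
log2 ratio, BPA over control, of each compared gene (points, stacked in 3 rows for legibility) in the 4 enzyme classes and in 8 wider lists, with the median of each as a black bar and 2-fold as dashed lines. Glycolysis lies wholly below 0 (1 gene is above it when scaled by total reads), and serine synthesis and mitochondrial folate wholly above it.

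The circRNA table gave a further readout of the same genes, made from RNA left after digestion of linear RNA. It listed 22 circRNAs from 8 of the 10 genes among 9158 in all, with 24 back-splice events with BPA and 18 in control, out of 17586 and 12909 events. No circRNA came from Psat1 or Shmt2. All 22 had both ends on annotated exon bounds, 4 were found in both libraries and 13 rested on 1 event. Mthfd1l alone gave 12 of them, with 17 events with BPA and 13 in control, a log2 ratio of -0.07 by the share of all events (-1.19 to 1.10) and of 0.10 with TMM scaling, so it had no settled sign. Its most frequent circle, on chromosome 10 from 4015514 to 4018599, had 5 events with BPA and 4 in control. Aldh1l2, whose mRNA had the largest ratio, gave 3 circRNAs with 2 events with BPA and 1 in control, and Mthfd2 gave 1 with 2 and 0. At this depth, a difference of the size seen in mRNA was not detectable in the circles.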

How the data were processed

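GC-2 cells of 1 culture per group were sequenced. Groups came from the samples' titles. STAR and StringTie were named for the mRNA libraries and STAR for the circRNA libraries, with the builds GRCm38 and mm10, per the submitters' processing notes, while no label names the counter, the annotation release or the filters. The authors deposited the mRNA as log2 values. Raised to linear scale and reduced by 1, 100% of them were whole multiples of a step (0.962 with BPA, 1.04 in control, tolerance 0.001), so whole reads were recovered. The deposited circRNA values were log2 values in steps of 2, and a step was taken as 1 event. If it stood for 2 reads, the circRNA intervals would be wider than needed. The authors' deposited p-values and adjusted p-values came from a test whose name is not given.

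The designed mRNA ratio was BPA over control on a log2 scale, taken from normalised values as deposited plus a pseudocount of 1, for genes with at least 10 reads together. Differences between genes used reads with no pseudocount. The circRNA ratio was of events plus 0.5, scaled by the library total. Exact conditional (Clopper-Pearson) 95% intervals of ratios, Poisson intervals of levels and conditional intervals of odds ratios came from SciPy 1.17.1 in Python 3.11.15, and the calculation was tested on simulated data. They leave out the error of the scaling. A count of 0 was read with a floor of 3 reads. With 1 library per group no test between conditions was made. Coordinates, exon overlaps and lengths came from GENCODE M21 (GRCm38), which held 22036 of the 22127 gene IDs, and promoters from RefSeq (GRCm38.p6). Protein sequences were not used here. The 10 genes, the wider lists and the motifs were chosen with earlier results of these data known. In each wider list the genes at 2-fold and 100 or more reads in either library are named, or else the highest and lowest with 100 reads, and any other gene of a list was chosen after its values were seen. Some genes of these lists are not reported here. The miRNA table was not used here.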

Additional observations from a re-analysis of the deposited data

How the results depend on the processing

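Scaling by total reads shifted every log2 ratio by 0.08, and TMM (trimmed mean of M-values) scaling by -0.01. By total reads the median log2 ratio was 0.83 for all 10 enzymes, 0.75 for the 9 without Asns, 0.75 for serine synthesis, -0.047 for cytosolic folate, 0.99 for mitochondrial folate and 1.10 for Asns, and 2 mitochondrial enzymes were at 2-fold, since Mthfd2 then stood at 1.06. Shmt1 fell on either side of 0: it was at 0.08 by total reads, -0.01 with TMM and -0.02 with the trend on GC content removed, so under the last 2 settings 0 cytosolic enzymes were above 0. With reads summed over genes in place of a median, the log2 ratio was 0.67 for all 10, 0.63 for the 9 and 0.83 for mitochondrial folate. Pseudocounts of 0.5 and 5 and filters of 50 reads or none left the medians and counts of the enzymes and of their classes where they were, and no median of the enzymes or of their classes changed sign under the settings run. The removal of the GC trend was chosen after seeing the data. By total reads the glycolysis list had 1 gene above 0, Hk2, whose ratio changed sign, and the carriers had 2 genes at 2-fold; the methionine and cysteine list had a median of -0.03 with at least 50 reads. Leaving out a replicate was not possible with 1 library per group. No paired analysis was possible because each group has 1 library. With TMM scaling the circRNA log2 ratio was 0.10 for Mthfd1l and 0.13 for all 10 genes, against -0.07 and -0.04 by the share of all events, so both changed sign. Depth limits the circRNA ratios and the genes with under 10 reads.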

Other observations

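The authors' deposited table gives p-values that do not follow the size of the ratio. In that table Psat1, at a log2 fold change of 0.68, has the smallest p of the 10 enzymes, 0.0454, and Phgdh, at 0.51, has 0.0747. For Aldh1l2, at 1.80, the authors' deposited table gives a p of 0.302, and for Psph, at 1.44, a p of 0.303. The adjusted p in the authors' deposited table is 0.961 for 9 of the enzymes and 0.995 for Shmt1.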
